A study of Mus musculus with 8 samples.

Results

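The genes described here encode the proteins of the cytosolic ribosome. They are the rows of the deposited count table whose gene symbol has the form of a ribosomal protein name, Rpl for the large subunit and Rps for the small subunit, with symbols that end in -ps left out. The rule uses the symbol alone and no measured value, and it took 89 of 55487 genes, 53 of the large and 36 of the small subunit. According to the paper, RNA was sequenced from the stromal vascular fraction of subcutaneous tumors. This is the mixture of host cells left after GFP-labelled MC38 colon carcinoma cells had been sorted away. There were 4 libraries labelled Bmal1+/+ and 4 labelled Bmal1-/-, from mice said to lack the clock transcription factor BMAL1 in the whole host while the implanted MC38 cells keep the gene. The labels give no strain, age, sex or hour of collection, and one number per library is all that ties a library to a mouse, so the p-values cover only the spread between these samples.

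A ribosome translates mRNA into protein. Its small subunit reads the mRNA, its large subunit joins the amino acids and lets the new chain out through a tunnel, and both are built from ribosomal RNA and ribosomal proteins. Transcripts of these proteins are known for a run of pyrimidines at their first bases, the terminal oligopyrimidine (TOP) motif, through which mTORC1 and LARP1 control their translation together.

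Some properties of the libraries bear on every result below. Totals lay between 14054825 and 18449143 counts, and a count of 3, used as a detection floor that covers counting error only, equals 0.163 to 0.213 CPM (counts scaled to the library total). Bmal1 itself (Arntl) was higher in the libraries labelled Bmal1-/-, at 32.6 ± 2.00 CPM (SD, n = 4) against 1.55 ± 0.814 CPM (SD, n = 4), against both labels, and the text therefore speaks of libraries labelled Bmal1+/+ or Bmal1-/-. Transcripts of the sex chromosomes separate the 8 libraries exactly as the labels do, so sex and label cannot be told apart in any difference given here. A list of 10 hepatocyte genes, which are not known as genes of tumor stroma, held 10.6 to 11.2% of counts in libraries labelled Bmal1+/+ and 6.39 to 7.08% in the libraries labelled Bmal1-/-. The corresponding shares were 0.0133 to 0.0204% and 0.0101 to 0.0109% for 8 fibroblast genes, 0.0385 to 0.0487% and 0.0184 to 0.0329% for 6 macrophage genes, and 0.0208 to 0.0240% and 0.0131 to 0.0176% for 5 endothelial genes, with no gene of these lists at 0 in all libraries. A list of 6 MC38 and epithelial genes held 0.0187 to 0.0240% in libraries labelled Bmal1+/+ and 0.0241 to 0.0367% in the libraries labelled Bmal1-/-. The highest value was that of replicate 4 labelled Bmal1-/-. Of the 5 genes of this list tested in the comparison below, 1 was called higher and 2 lower. Of the 10 hepatocyte genes, 2 were called higher and 1 lower, with a median log2 fold change of -0.015. Over all genes tested, 14.9% were called higher and 16.2% lower. Called lower were 5 of 5 tested endothelial, 5 of 6 macrophage and 3 of 7 fibroblast genes, and 0 of each list were called higher. Their median log2 fold changes were -0.64, -0.96 and -0.70. The summed shares of these lists thus moved with the labels. Single genes of the endothelial, macrophage and fibroblast lists went 1 way where called, whereas hepatocyte and epithelial genes went both ways. The part of these lists in the results on ribosomal proteins was not tested. Replicate 4 of the libraries labelled Bmal1-/- stood apart, with 3.57% of its counts on 8 acute-phase genes against 0.221 to 0.327% in libraries labelled Bmal1+/+, and results are also given without it. Hepatocyte genes held far more of the counts than the fibroblast, macrophage and endothelial lists. Whether the RNA came from tumor stroma was not tested. In mixed tissue, more cells of a type and more RNA per cell cannot be told apart.

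The TOP motif described above was searched at the first bases of the genes, and the windows of some members that have it are shown. Of the members, 64 had a window around an annotated transcription start in RefSeq (GRCm38.p6), in 76 windows. At the annotated start, 14 of the 64 (21.9%) had a C followed by at least 4 bases that are each C or T on the coding strand, against 3.01% of all 27025 genes with a window. With the run allowed to begin within 5 bases of the start, the shares were 46.9% and 21.2%. Below are 30 bases each, 10 before and 20 from the start, 5′ to 3′ on the coding strand, with the run of C and T from the start in capitals. The first 5 genes were higher in the libraries labelled Bmal1-/- and the next 3 were not called. Of all tested members with the run at the start, 7 of 14 were higher.
Rpl35, chr2:39005112-39005141, minus strand: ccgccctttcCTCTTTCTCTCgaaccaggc
Rpl35a, chr16:33056472-33056501, plus strand: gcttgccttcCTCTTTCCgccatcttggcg
Rps6, chr4:86857348-86857377, minus strand: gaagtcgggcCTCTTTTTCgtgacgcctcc
Rps15a, chr7:118116128-118116157, minus strand: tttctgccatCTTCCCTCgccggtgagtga
Rps21, chr2:180257369-180257398, plus strand: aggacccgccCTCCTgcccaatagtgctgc
Rpl15, chr14:18270967-18270996, minus strand: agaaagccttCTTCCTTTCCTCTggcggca
Rplp2, chr7:141447641-141447670, plus strand: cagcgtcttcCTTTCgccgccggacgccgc
Rps10, chr17:27635225-27635254, minus strand: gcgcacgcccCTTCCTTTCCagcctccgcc

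BMAL1 is known to bind, with CLOCK, the sequence CACGTG, called an E-box, which reads the same on both strands. It was searched in the 300 bases from 250 before to 50 after each start. It was found in 6 of the 64 members (9.38%) and in 8.09% of all genes with a window. The 6 are shown with 12 bases on each side, 5′ to 3′ on the coding strand, and the motif in capitals.
Rpl13a, chr7:45128928-45128957, minus strand: cgctccgaaaccCACGTGacatcccgcccc
Rpl14, chr9:120571337-120571366, plus strand: ccaagctcactgCACGTGtctgaggagaag
Rpl19, chr11:98026679-98026708, plus strand: tacccagaggacCACGTGaccaaacgccct
Rpl23, chr11:97782425-97782454, minus strand: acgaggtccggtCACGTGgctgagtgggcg
Rpl34, chr3:130730536-130730565, minus strand: cacctaacttctCACGTGacgttcctaccg
Rps19, chr7:24884781-24884810, plus strand: tggagccgcggcCACGTGcgagcggcaggc

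The comparison asks how transcripts of the ribosomal proteins in the tumor host differ between the Bmal1 labels. They were higher in the libraries labelled Bmal1-/-, in both subunits and by a similar amount. Of 84 members that passed the filter on low counts, 48 were called higher (adjusted p below 0.05, quasi-likelihood test of edgeR, Benjamini-Hochberg adjusted over all 14353 genes tested) and 0 were called lower, where 14.9% of all genes tested were called higher and 16.2% lower. The large subunit had 27 of 50 higher, with a median log2 fold change of 0.48, and the small subunit had 21 of 34 higher, with a median of 0.53. Over all genes tested the median was 0.02. At an unadjusted p below 0.05 edgeR had 62 members higher and 1, Rpl17, lower, and with DESeq2 and limma-voom 0 were lower at an adjusted p below 0.05. The log2 fold change was above 0 for 80 of 84 members and for 52.1% of all genes tested. In 53 of 84 members every library labelled Bmal1-/- lay above every library labelled Bmal1+/+, and in 0 members the reverse, where 16.7% and 16.8% of all genes tested did so. Without replicate 4 of the libraries labelled Bmal1-/-, 27 large and 24 small subunit genes were called higher and 0 lower, with medians of 0.49 and 0.58.

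**Figure D1:**
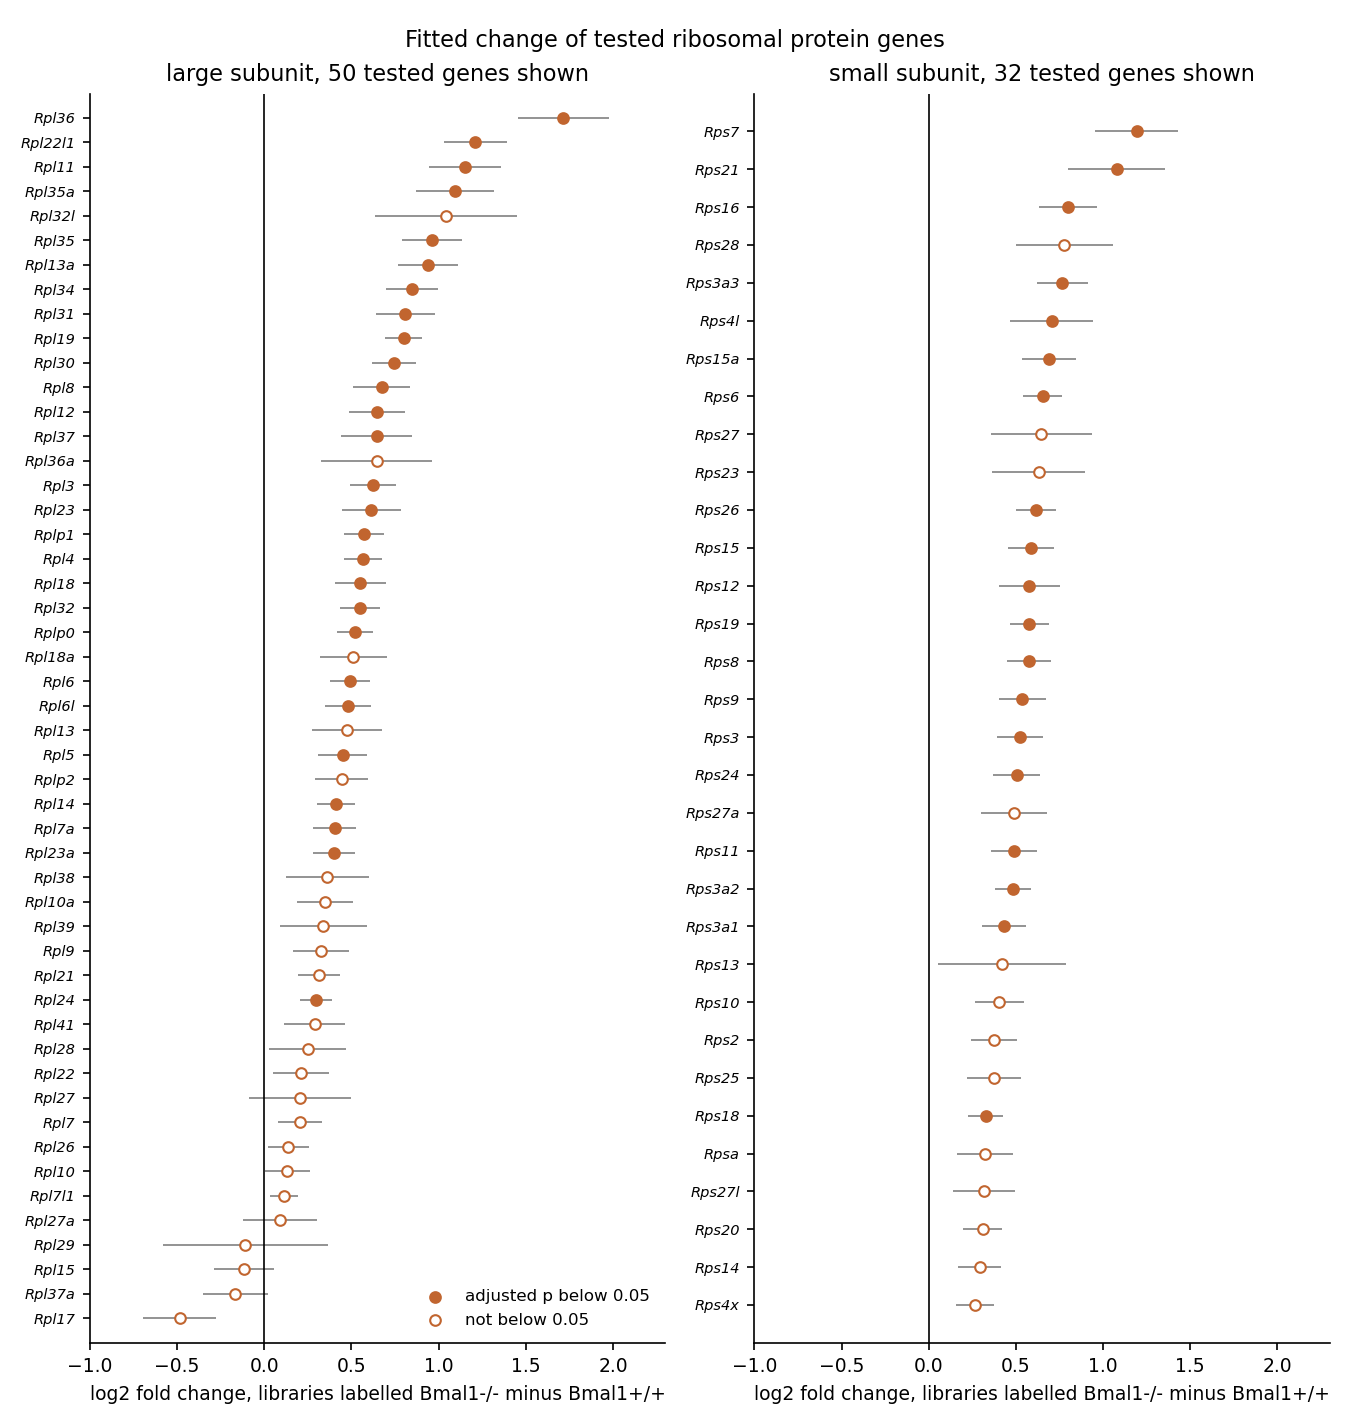
Fitted log2 fold change (horizontal axis, libraries labelled Bmal1-/- minus those labelled Bmal1+/+, bars are the standard error) of tested genes of the large subunit (left, 50 genes) and the small subunit (right, 32 of 34 genes), in order of size, with filled points for an adjusted p below 0.05. All filled points lie to the right of 0, and the 4 points to the left of 0 (Rpl17, Rpl37a, Rpl15 and Rpl29) are open.

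The same difference appeared in each library. Measured against each gene's mean over the libraries labelled Bmal1+/+, the median large subunit gene lay at -0.02, 0.03, 0.02 and -0.10 on the log2 scale in replicates 1 to 4 labelled Bmal1+/+, and at 0.39, 0.43, 0.69 and 0.32 in replicates 1 to 4 labelled Bmal1-/-. For the small subunit the medians were -0.03, 0.06, 0.04 and -0.06 in libraries labelled Bmal1+/+ and 0.43, 0.56, 0.78 and 0.37 in the libraries labelled Bmal1-/-. Replicate 3 was the highest of the libraries labelled Bmal1-/- in both subunits and replicate 4 the lowest. Even in replicate 4, 44 of 50 large and 31 of 34 small subunit genes lay above that mean.

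**Figure D2:**
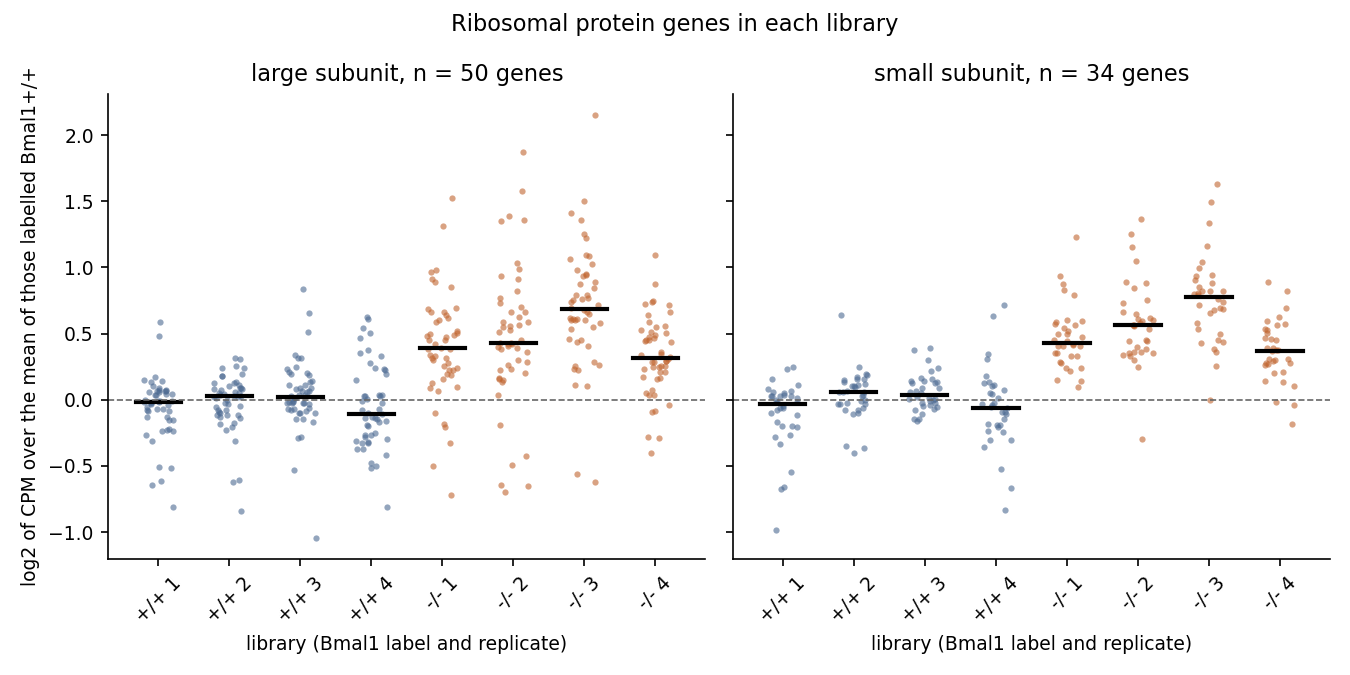
Log2 of the CPM of each tested ribosomal protein gene over its mean in libraries labelled Bmal1+/+ (vertical axis, 1 point per gene), for the 8 libraries (horizontal axis), with black bars at the median of 50 large (left) and 34 small (right) subunit genes. The medians of the 4 libraries labelled Bmal1+/+ lie between -0.10 and 0.06, and those of the libraries labelled Bmal1-/- between 0.32 and 0.78.

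Ribosomal protein transcripts were a small share of each library. In libraries labelled Bmal1+/+ the 89 genes held 0.531, 0.534, 0.550 and 0.509% of counts, and in the libraries labelled Bmal1-/- 0.741, 0.787, 0.870 and 0.659%. The groups did not overlap, and the mean rose from 0.531% ± 0.0167 (SD, n = 4) to 0.764% ± 0.0879 (SD, n = 4), a ratio of 1.44, or 1.51 without replicate 4. Large subunit genes went from 0.292% ± 0.00794 to 0.427% ± 0.0429 and small subunit genes from 0.239% ± 0.00968 to 0.337% ± 0.0452 (SD, n = 4 each). No test was run on these shares.

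**Figure D3:**
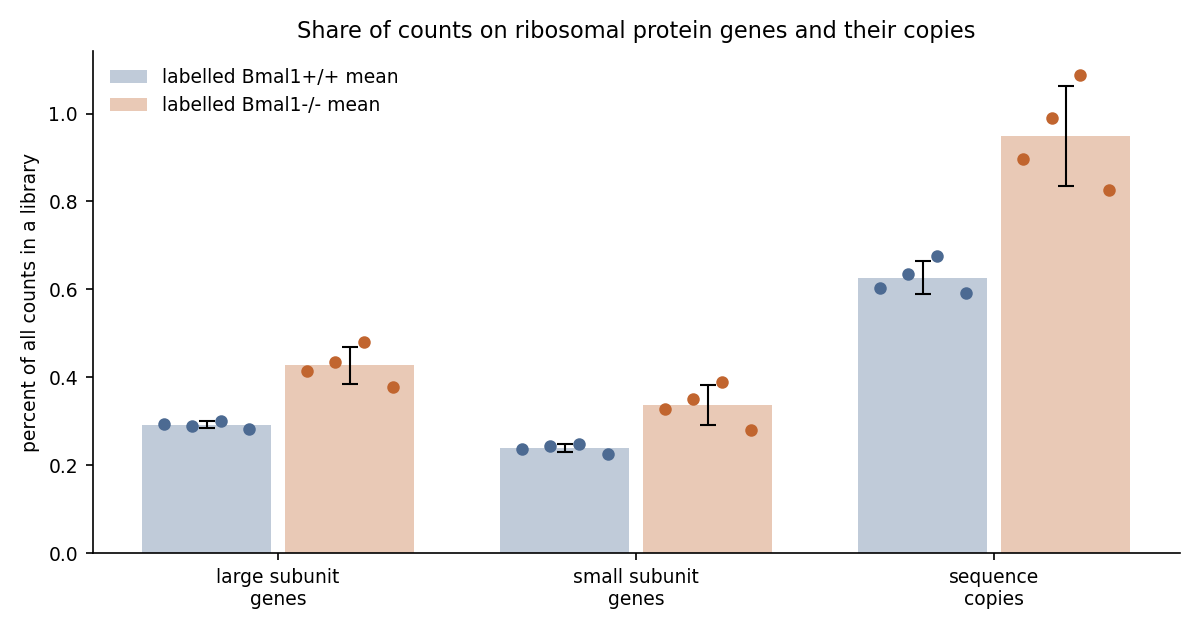
Percent of all counts in a library (vertical axis) on large subunit genes, small subunit genes and the sequence copies described below, with 1 point per library, bars at the mean and error bars of 1 SD (n = 4 per label). In all 3 classes the points of the libraries labelled Bmal1-/- lie above those of the libraries labelled Bmal1+/+.

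The largest fitted difference of single genes was in Rpl36 (ENSMUSG00000057863, chromosome 17 from 56613416 to 56614243), a small protein on the outer face of the large subunit. It had 14.9, 20.6, 30.4 and 19.4 CPM in replicates 1 to 4 labelled Bmal1+/+ and 61.3, 77.8, 94.9 and 45.5 CPM in the libraries labelled Bmal1-/-. The lowest library labelled Bmal1-/- was thus above the highest library labelled Bmal1+/+, with a log2 fold change of 1.71 (SE 0.26, edgeR adjusted p = 0.0012). Summed with its sequence copies, described below, Rpl36 had 0.86, under Rpl22l1 at 1.16 and Rpl37a at 1.07. Rpl22l1 (ENSMUSG00000039221, chromosome 3 from 28805436 to 28807424), a paralog of Rpl22, had 9.15, 14.1, 11.8 and 10.4 CPM in libraries labelled Bmal1+/+. It had 28.2, 29.2 and 29.2 CPM in replicates 1 to 3 labelled Bmal1-/- and 18.7 CPM in replicate 4. The groups did not overlap, and the log2 fold change was 1.21 (SE 0.18, edgeR adjusted p = 0.0011). Called with a log2 fold change above 1 were 7 of 84 members, Rpl11, Rpl35a, Rps7 and Rps21 among them, where 4.91% of all genes tested were. Rpl32l, an intronless copy of Rpl32, had 1.04 (SE 0.41) without passing the test (edgeR adjusted p = 0.080), at 0.28 to 0.87 CPM and 0.75 to 1.45 CPM.

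**Figure D4:**
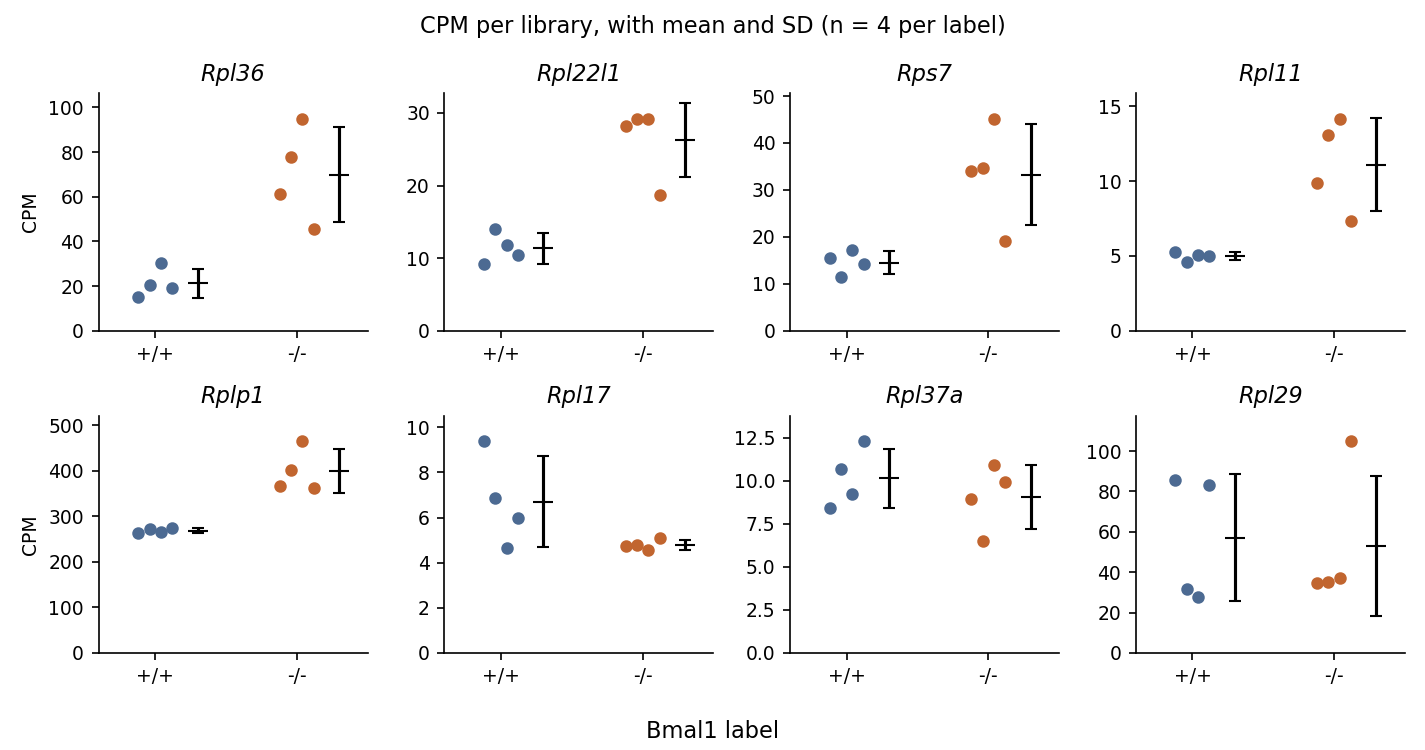
CPM (vertical axes, linear from 0) in each of the 4 libraries per Bmal1 label for 8 genes, with the mean and 1 SD to the right of the points. Rpl36, Rpl22l1, Rps7, Rpl11 and Rplp1 do not overlap between labels, whereas Rpl17, Rpl37a and Rpl29 do.

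The 5S particle is the part of the large subunit formed by 5S ribosomal RNA with Rpl5 and Rpl11, which outside the ribosome can bind MDM2, the ubiquitin ligase of p53. Both proteins' transcripts were higher. Rpl11 (ENSMUSG00000059291) had 5.30, 4.61, 5.04 and 5.01 CPM in libraries labelled Bmal1+/+ and 9.87, 13.1, 14.2 and 7.33 CPM in the libraries labelled Bmal1-/-, with a log2 fold change of 1.15 (SE 0.21, edgeR adjusted p = 0.0027). Rpl5 had 18.8 ± 2.15 and 25.7 ± 4.40 CPM (SD, n = 4), a log2 fold change of 0.45 (SE 0.14, edgeR adjusted p = 0.037). Its call was lost in 8 of 20 other settings, among them those without each of replicates 1 to 4 labelled Bmal1+/+ and of replicates 2 and 3 labelled Bmal1-/- (edgeR adjusted p between 0.051 and 0.10). Summed with its sequence copies, which held 92.3% of the counts, Rpl5 had a log2 fold change of 0.63 (edgeR adjusted p = 0.0037). The sum for Rpl11 had 0.61 (edgeR adjusted p = 0.0069).

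The stalk proteins Rplp0, Rplp1 and Rplp2 recruit the elongation factors. Rplp1 was the most abundant member per length of exon, with 531 FPKM (fragments scaled to exon length and library total) in libraries labelled Bmal1+/+ and 806 FPKM in the others, both as means of the deposited values. In CPM it had 263, 272, 264 and 273 in libraries labelled Bmal1+/+ and 366, 402, 465 and 362 in the libraries labelled Bmal1-/-, a log2 fold change of 0.57 (SE 0.12, edgeR adjusted p = 0.0049). Rplp0 followed with 0.52 (SE 0.10, edgeR adjusted p = 0.0044). Rplp2 did not overlap between labels, at 38.0 to 61.9 CPM and 66.9 to 80.4 CPM, but missed the threshold (log2 fold change 0.44, SE 0.15, edgeR adjusted p = 0.052).

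Proteins at the tunnel through which the new chain leaves did not all move alike. Of 8, 5 (62.5%) were higher, near the 57.1% of all tested members, where 14.9% of all genes tested were. Rpl4, which lines the tunnel, had 399.9, 417, 394 and 396 CPM in libraries labelled Bmal1+/+ and 559, 620, 644 and 558 CPM in the others (log2 fold change 0.57, SE 0.11, edgeR adjusted p = 0.0038). Rpl19 went from 22.5 ± 1.06 to 39.2 ± 4.32 CPM (SD, n = 4), a log2 fold change of 0.80 (SE 0.11) with the lowest adjusted p of all members (5.0e-04, edgeR). Rpl31 had 0.81 (SE 0.17), Rpl35 0.96 (SE 0.17) and Rpl23a 0.40 (SE 0.12) on the log2 scale. The call of Rpl23a was lost without each of replicates 1, 2 and 3 labelled Bmal1+/+ and of replicates 2 and 3 labelled Bmal1-/-, at edgeR adjusted p between 0.064 and 0.089. Rpl26 and Rpl39 had log2 fold changes of 0.14 (SE 0.12) and 0.34 (SE 0.25) and did not pass.

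Rpl17, the remaining protein of the tunnel exit, had the lowest log2 fold change of the family, -0.49 (SE 0.21, edgeR adjusted p = 0.11, unadjusted p = 0.045). It had 9.39, 6.85, 4.64 and 5.96 CPM in libraries labelled Bmal1+/+ and 4.75, 4.78, 4.55 and 5.09 CPM in the others. The groups overlap through replicate 3 labelled Bmal1+/+, without which Rpl17 was called lower (log2 fold change -0.63, edgeR adjusted p = 0.039). This was the only call of a lower member in any of the 20 other settings. The other members below 0 were Rpl37a at -0.17 (SE 0.19), Rpl15 at -0.12 (SE 0.17) and Rpl29 at -0.11 (SE 0.47), and each had overlapping groups and an edgeR adjusted p of at least 0.53.

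Rpl29 varied more among libraries of 1 label than between labels. It had 85.8, 31.9, 27.7 and 83.1 CPM in replicates 1 to 4 labelled Bmal1+/+ and 34.7, 35.3, 37.2 and 105 CPM in replicates 1 to 4 labelled Bmal1-/-. Replicates 1 and 4 of the libraries labelled Bmal1+/+ and replicate 4 labelled Bmal1-/- were high, and the other 5 libraries lay between 27.7 and 37.2 CPM. Without 1 of the libraries the log2 fold change ran from -0.68 to 0.15.

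In the small subunit, every tested gene had a log2 fold change above 0, from 0.27 for Rps4x to 1.19 for Rps7. Rps7 (ENSMUSG00000061477, chromosome 12 from 28630854 to 28635953) had 15.4, 11.4, 17.1 and 14.2 CPM in libraries labelled Bmal1+/+. The libraries labelled Bmal1-/- had 34.0, 34.7, 45.1 and 19.1 CPM, all above the libraries labelled Bmal1+/+ although replicate 4 came close (SE 0.24, edgeR adjusted p = 0.0046). Rps21 had 16.3, 20.2, 27.1 and 40.3 CPM and 46.3, 57.9, 73.3 and 42.1 CPM, a log2 fold change of 1.08 (SE 0.28, edgeR adjusted p = 0.016). Rps6, the substrate of the S6 kinases, went from 22.7 ± 2.11 to 35.8 ± 3.65 CPM (SD, n = 4) with a log2 fold change of 0.65 (SE 0.11, edgeR adjusted p = 0.0022). Rps16 had 0.80 (SE 0.17, edgeR adjusted p = 0.0061). Rps28 had 0.78 (SE 0.28) with overlapping groups and did not pass (edgeR adjusted p = 0.059), although it did without replicate 4 labelled Bmal1+/+ (edgeR adjusted p = 0.0052).

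Of 5 proteins along the mRNA path and at the decoding site, Rps3, Rps9 and Rps15 were higher, with log2 fold changes of 0.52, 0.54 and 0.59. Rps15, which reaches toward the decoding site, had 97 to 124 CPM in libraries labelled Bmal1+/+ and 139 to 201 CPM in the others. Rps2 had 0.38 (SE 0.13, edgeR adjusted p = 0.054) and Rps23 0.63 (SE 0.27, edgeR adjusted p = 0.10). Rps2 was called without replicate 4 labelled Bmal1-/- (edgeR adjusted p = 0.020) and without replicate 2 labelled Bmal1+/+ (0.050).

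Per length of exon, the genes spanned a wide range, although a ribosome holds about equal numbers of nearly all these proteins. The mean FPKM over the 8 libraries was highest for Rplp1 (668), Rpl4 (191), Rpl8 (148), Rpl36 (119.6) and Rpl32 (99.4) in the large subunit. In the small subunit it was highest for Rps3a1 (171), Rps15 (170.1), Rps3a2 (110.2), a pseudogene in the annotation, and Rps4x (79.0). The lowest of the tested members were Rps13 (0.165) and Rpl9 (0.508). Of the counts of each gene with its sequence copies, however, 98.8% for Rps13 and 96.9% for Rpl9 lay on the copies. Summed with them, the means were 104 and 145 CPM in libraries labelled Bmal1+/+. The range of single genes thus includes how counts were divided between genes and copies, and is no measure of protein numbers. Of the 9 genes named as highest, 8 were called higher, Rps4x being the exception, where 57.1% of all tested members were. Rps3a1 lost its call without each of replicates 1, 2 and 3 labelled Bmal1+/+ and without replicate 3 labelled Bmal1-/- (edgeR adjusted p between 0.059 and 0.075).

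Paralogs of ribosomal proteins did not move as 1 group. Rpl22l1 was higher, as given above, whereas its parent Rpl22 had 77.5 ± 14.5 and 89.8 ± 15.2 CPM (SD, n = 4), a log2 fold change of 0.21 (SE 0.16) that did not pass. Rps4l, a pseudogene of Rps4x in the annotation, had 0.70 (SE 0.24, edgeR adjusted p = 0.048), with 5.96 to 11.0 CPM and 8.68 to 16.6 CPM in overlapping groups, and its call was lost in 14 of 20 other settings. Its parent Rps4x had 149, 152, 144 and 175 CPM and 183, 185, 208 and 170.0 CPM (log2 fold change 0.27, SE 0.11, edgeR adjusted p = 0.092). Rps27l, a known p53 target, had 0.32 (SE 0.18) and Rpl7l1 0.11 (SE 0.08) on the log2 scale, and neither passed. Rpl3l, the striated muscle form, had at most 2 counts in any library, and Rpl10l and Rpl39l, known from testis, had 0 in all. Of the parents Rpl3, Rpl7, Rpl10, Rpl22, Rpl39, Rps4x and Rps27, Rpl3 alone was higher (47.8 ± 6.46 and 73.8 ± 9.21 CPM, SD, n = 4, log2 fold change 0.63, SE 0.13). Besides Rpl3l, Rpl10l and Rpl39l, the members that did not pass the filter were Rps12l1, with 0 counts in all libraries, and Rps29, with 2 to 15 counts.

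The 4 members on the X chromosome, Rpl10, Rpl36a, Rpl39 and Rps4x, had log2 fold changes from 0.13 to 0.64, and 0 of 4 were called in edgeR, DESeq2 or limma-voom, with 1 (Rps4x) at an unadjusted edgeR p below 0.05. Rpl36a, at 1.41 to 3.43 and 2.65 to 4.63 CPM, was called without replicate 3 labelled Bmal1+/+ (log2 fold change 0.94, edgeR adjusted p = 0.042). Summed with their sequence copies, Rpl10 and Rpl36a had log2 fold changes of 0.45 and 0.86 and were called higher (edgeR adjusted p = 0.020 and 0.0074). The sums for Rpl39 and Rps4x had 0.69 and 0.26 and were not called (edgeR adjusted p = 0.059 and 0.10). Of the 6 members that the annotation holds to be pseudogenes, 5 were tested and 4 were higher. Of 18 genes mutated in Diamond-Blackfan anemia, the inherited failure of red cell production, 17 were tested and 11 were higher, with a median log2 fold change of 0.62. That share, 64.7%, was near the 57.1% of all tested members, where 14.9% of all genes tested were higher.

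Start motifs did not separate the called members from the others in a uniform way. Of tested members with the pyrimidine run at the annotated start, 7 of 14 were higher, against 26 of 47 without it, with median log2 fold changes of 0.54 and 0.50. With the run allowed to begin within 5 bases of the start, 18 of 30 were higher against 15 of 31, with medians of 0.58 and 0.45. Among all tested genes with a window, 18.8% of 303 genes with the run and 14.5% of 9775 without it were higher. The 6 members with CACGTG were all higher, with a median of 0.71, against 27 of 55 without it, with a median of 0.47. Over all genes, 14.4% of 1178 with CACGTG and 14.6% of 8900 without it were higher. No test was run on these counts. Of the 6, Rpl14 and Rpl23 lost the call without single libraries, Rpl14 without replicates 1 or 2 labelled Bmal1+/+ (edgeR adjusted p = 0.052 and 0.051) and Rpl23 without replicates 2 or 4 labelled Bmal1+/+ or replicate 3 labelled Bmal1-/- (edgeR adjusted p = 0.058, 0.062 and 0.054).

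Many ribosomal protein genes have intronless copies elsewhere in the genome, and the counts of a gene and its copies can be exchanged by read assignment. Of non-member genes, 390 shared at least 50% of their 25-base words with 1 member. These copies held more counts than the members, 0.626% ± 0.0375 of a library labelled Bmal1+/+ and 0.950% ± 0.114 of a library labelled Bmal1-/- (SD, n = 4). Of 245 copies tested, 137 were higher and 0 lower, with a median log2 fold change of 0.57, 1 was lower at an unadjusted p below 0.05, and 100 to 138 were higher with 1 library left out, with 1 lower without replicate 4 labelled Bmal1+/+ and 1 lower without replicate 4 labelled Bmal1-/-. In DESeq2 and limma-voom 132 and 138 were higher and 0 lower. Rps13 had 172 counts over the 8 libraries and its copies 14675, or 98.8% of the family. The share in copies was 98.8% for Rps23, 98.1% for Rpl28, 97.7% for Rpl17, 97.3% for Rpl10 and 96.0% for Rpl11. For Rps29, which did not pass the filter, it was 98.6%, with 5132 counts on the single copy Gm14303. By this cut, Rpl4, Rpl22, Rpl32, Rpl37, Rps3, Rps21 and Rps27l had no copy with counts among non-members. They are not thereby free of shared sequence. Of the 25-base words of Rpl22 and Rpl32, for example, 11.9% and 47.5% also occurred in other genes.

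Each member was therefore also summed with its copies, an alternative chosen after the data were seen. Of the features so formed, 39 of 49 in the large and 26 of 33 in the small subunit were higher and 0 lower, where 13.9% of all features of that fit were higher. The 49 and 33 include the annotated pseudogenes Rpl32l and Rps4l, which were joined to no other gene and stand alone. The 4 members below 0 then had log2 fold changes above 0. Rpl37a with its copies went from 60.8 ± 14.8 to 128 ± 30.1 CPM (SD, n = 4), 1.07 on the log2 scale (SE 0.22, edgeR adjusted p = 0.0052). The sums for Rpl15, Rpl17 and Rpl29 had log2 fold changes of 0.49 (edgeR adjusted p = 0.024), 0.35 (0.054) and 0.01 (0.99). For some genes the difference became smaller, to 0.86 from 1.71 in Rpl36, to 0.57 from 1.19 in Rps7 and to 0.61 from 1.15 in Rpl11, and all 3 were still called. Rpl22l1 with its copy had 1.16 and Rps21, which has none, 1.07. The family of Rps29 had 1.02 (SE 0.24, edgeR adjusted p = 0.010).

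Ribosomal proteins whose names fall outside the symbol rule had log2 fold changes above 0 as well, and 2 of 5 were higher, where 14.9% of all genes tested were. Rack1, a signaling scaffold on the small subunit, went from 224 ± 17.2 to 342 ± 47.0 CPM (SD, n = 4), a log2 fold change of 0.61 (SE 0.13, edgeR adjusted p = 0.0058). Rpl36al, an intronless relative of Rpl36a, had 0.48 (SE 0.11, edgeR adjusted p = 0.011). Fau, which encodes a ribosomal protein fused to a ubiquitin-like protein, had 0.44 (SE 0.17), and Rps27rt, a copy of Rps27, had 0.68 (SE 0.24), and neither passed. Fau was called without replicate 3 labelled Bmal1+/+ and without replicate 4 labelled Bmal1-/- (edgeR adjusted p = 0.032 and 0.046), and Rps27rt without replicate 4 labelled Bmal1+/+ (0.021).

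Other lists of the translation machinery had smaller shares of genes called higher, a difference that was not tested. Over all genes tested the shares were 14.9% higher and 16.2% lower. Of 77 tested mitochondrial ribosomal proteins, which build the separate ribosome of mitochondria, 14 were higher and 1 lower, with a median log2 fold change of 0.23. Mrps12 had 0.74 (SE 0.19) and Mrpl57 0.56 (SE 0.14), while Mrpl15 fell from 34.1 ± 0.645 to 22.9 ± 2.69 CPM (SD, n = 4, log2 fold change -0.57, SE 0.11, edgeR adjusted p = 0.0030). The number of calls in this list was 8 or 9 without replicate 1 or 2 labelled Bmal1+/+ or replicate 2 or 3 labelled Bmal1-/-. Elongation factors and other mRNAs of the TOP class had 5 of 17 higher and 1 lower, with a median of 0.26. Tpt1, a growth-related TOP mRNA, had 0.75 (SE 0.15) and Eef1g, a subunit of elongation factor 1, 0.57 (SE 0.09), whereas Eef1a1 and Eef2 had 0.31 (SE 0.13) and 0.28 (SE 0.13) without passing, although Eef1a1 was called without replicate 4 labelled Bmal1-/- (edgeR adjusted p = 0.024). Vim, which encodes vimentin, was the lower one, at -0.67 (SE 0.15, edgeR adjusted p = 0.0095). Of 36 initiation factors, 7 were higher and 1 lower, with a median of 0.16. Eif4g3 had 0.84 (SE 0.14), Eif3g 0.57 (SE 0.14) and Eif2s3x, a subunit of eIF2 encoded on the X chromosome, -0.48 (SE 0.11). Without replicate 1 or 4 labelled Bmal1+/+ there were 5 calls in this list.

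**Figure D5:**
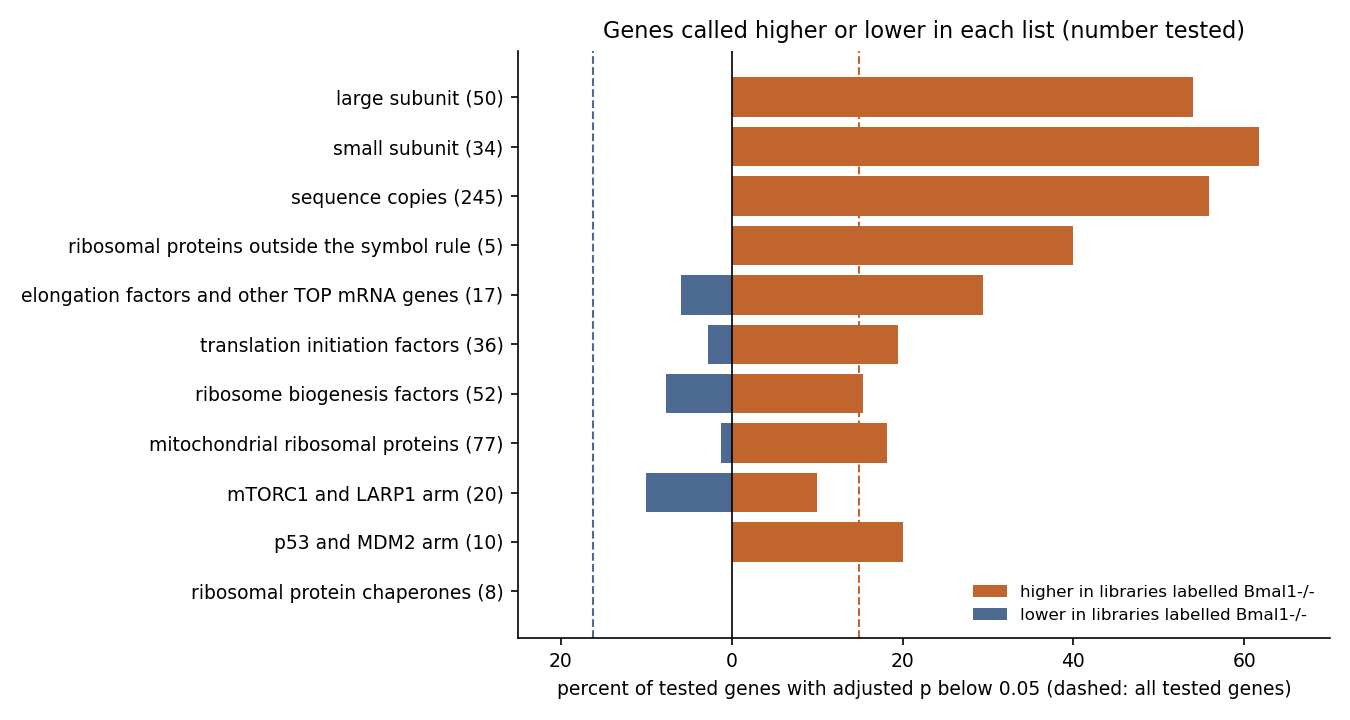
Percent of the tested genes of each list (vertical axis, number tested in brackets) that were called higher (to the right) or lower (to the left) in the libraries labelled Bmal1-/-, with dashed lines at the 14.9% and 16.2% of all tested genes. The bars of the large and small subunits (54.0% and 61.8%) and of the sequence copies (55.9%) reach beyond those of the other lists to the right, and have none to the left.

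The shares called in the next lists were near or below those over all genes tested, 14.9% higher and 16.2% lower. Factors that build ribosomes in the nucleolus had 8 of 52 higher (15.4%) and 4 lower (7.7%), with a median log2 fold change of 0.07. Nat10, the ribosomal RNA acetyltransferase, had 0.85 (SE 0.09) and Nop10, of the pseudouridylation particle, 0.81 (SE 0.13). Riok2, a kinase of late small subunit maturation, fell from 39.0 ± 4.41 to 19.4 ± 0.999 CPM (SD, n = 4) (edgeR adjusted p = 1.6e-04), and Nop58 had -0.56 (SE 0.12). Dedicated chaperones of ribosomal proteins had 0 of 8 called in edgeR, with a median of 0.05, 1 (Pdcd2l) at an unadjusted p below 0.05, and 0 called in DESeq2 or limma-voom. In the mTORC1 and LARP1 list 2 of 20 were higher, Tsc1 (0.47, SE 0.12) and Pdcd4 (0.45, SE 0.11), and 2 lower, Sesn2 (-0.63, SE 0.18) and Larp4 (-0.32, SE 0.11), with 0.15 (SE 0.11) for Larp1 and -0.10 (SE 0.17) for Mtor. Larp4 kept its call with 1 library left out only when that was replicate 1 labelled Bmal1-/- (edgeR adjusted p between 0.064 and 0.13 without each of the others), and with offsets for length and GC content it had -0.09 (edgeR adjusted p = 0.47). Sesn2 lost its call as well without replicate 2 labelled Bmal1+/+ or without replicate 2, 3 or 4 labelled Bmal1-/- (edgeR adjusted p between 0.051 and 0.066), which left 2 calls in this list. Of 10 genes of the p53 and MDM2 arm, 2 were higher. Cdkn1a, which encodes the cell cycle inhibitor p21, went from 12.1 ± 6.82 to 198 ± 78.4 CPM (SD, n = 4), a log2 fold change of 4.04 (SE 0.42, edgeR adjusted p = 1.2e-04), and Trp53 had 0.48 (SE 0.15, edgeR adjusted p = 0.032). The call of Trp53 was lost without any 1 library except replicate 2 labelled Bmal1+/+ (edgeR adjusted p between 0.050 and 0.079).

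Of the 48 members called higher, 33 were called in all of 20 other settings of the comparison of single genes, 18 in the large and 15 in the small subunit, and 15 lost the call in at least 1. Of the 36 that were not called, 19 were called in none of these settings and 17 in at least 1. Members had shorter annotated exons than other genes, with a median of 1754.5 bases against 3973 bases over all genes tested, and a GC content of 50.9% against 49.4%. With offsets for length and GC content the medians were 0.45 for the large and 0.56 for the small subunit.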

How the data were processed

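Whole-transcriptome RNA of 8 samples was sequenced with paired-end reads. According to the paper, reads were aligned to GRCm38 with HISAT2 and fragments per gene were counted with StringTie. The deposited counts are whole numbers with no normalization. The authors also deposited FPKM values, used here for levels per exon length and in 1 alternative. The submitters' processing notes instead name CASAVA 1.8 and TopHat2 2.0.6, so the aligner behind these counts is uncertain. Strand use in counting is not given in the sources used here. Symbols, coordinates and exon lengths came from GENCODE M21 (GRCm38), which matched 99.4% of 55487 identifiers.

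Groups followed the genotype labels and the replicate numbers, and the sample titled KO6 is replicate 4 by its description. CPM (TMM), log2 fold changes, standard errors and p-values came from edgeR 4.0.16 in R 4.3.3 (filterByExpr, quasi-likelihood test, prior count 0.125, common dispersion 0.0506, 14353 genes tested, Benjamini-Hochberg adjustment over all of them), with adjusted p below 0.05 as the threshold. The fit was tested on simulated data. Alternatives were upper-quartile and RLE normalization, library size only, 3 filters, a prior count of 2, limma-voom and limma 3.58.1 on log2(FPKM + 0.1), DESeq2 1.42.0, offsets for length and GC content (available for 99.9% of tested genes), the replicate number as a block, and each library left out. Added after the data were seen were members summed with their copies and the share of counts with each library left out. Copies are genes with at least 50% of their 25-base words in a member, small RNAs left out. Start windows came from RefSeq (GRCm38.p6), and Python 3.11.15 with matplotlib 3.10.9 drew the figures.

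Members and lists were chosen with earlier results of these data known. Named members are the 5 highest and 5 lowest log2 fold changes and the 5 highest levels per length of each subunit, the paralogs and their parents, the role groups, the members not tested and the ribosomal proteins outside the rule. In other lists they are the 2 highest and 2 lowest called. A few genes that this rule names are not reported here. Rpl5, Rps6, Rpl8 and the other genes beyond this rule were named after their values were seen. Library pairs of 1 label differed by a chi-square per degree of freedom of at least 18.0, so no library was treated as a repeat of another. Intervals and floors cover counting error only.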

Additional observations from a re-analysis of the deposited data

Results flagged for a closer look

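In 106 groups of 4 libraries, 2 for each of 53 named members, 6 had a library whose CPM stood apart from the other 3 by Dixon's criterion at the 95% level. Chance flags about 1 in 20 groups. In the libraries labelled Bmal1-/-, replicate 4 had 18.7 CPM of Rpl22l1 where the others had 28.2 to 29.2 CPM, and 105 CPM of Rpl29 where the others had 34.7 to 37.2 CPM. Replicate 3 of the same label had 233 CPM of Rps3a1 against 172 to 182 CPM, and 8.68 CPM of Rps4l against 15.3 to 16.6 CPM. Of the libraries labelled Bmal1+/+, replicate 4 had 243 CPM of Rpl7 against 192 to 193 CPM, and replicate 2 had 106 CPM of Rps20 against 89.3 to 91.1 CPM.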

How the results depend on the processing

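The number of members called higher stayed within 1.5 times in every alternative, with 20 to 29 in the large and 17 to 24 in the small subunit over the planned ones and 39 and 26 after summing with copies, and no member was called lower except Rpl17 without replicate 3 labelled Bmal1+/+. With 1 library left out the medians ran from 0.38 to 0.51 in the large and from 0.44 to 0.60 in the small subunit. The lists around the ribosome were less stable. Initiation factors had 5 calls without a filter on low counts, 5 with the replicate block, 14 with offsets for length and GC content, and 5 to 9 with 1 library left out. Mitochondrial ribosomal proteins had 8 without a filter and 8 to 20 with 1 library left out, and the mTORC1 and LARP1 list 2 to 4. The cause was not tested. Directions turned in members that were not called in the comparison of all libraries. Rpl15 had a log2 fold change of 0.027 with the offsets, ran from -0.28 to 0.015 with 1 library left out (0.015 without replicate 4 labelled Bmal1+/+), and had 0.49 when summed with its copies. Rpl17 had 0.35 and Rpl37a 1.07 when summed, and Rpl27a ran from -0.15 to 0.23 with 1 library left out, below 0 without replicate 3 labelled Bmal1-/-. Rpl29 ran from -0.68 to 0.15 with 1 library left out (0.15 and 0.12 without replicates 1 and 4 labelled Bmal1+/+, and 0.05, 0.05 and 0.02 without replicates 1, 2 and 3 labelled Bmal1-/-) and had 0.010 when summed.

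Groups share replicate numbers, but same-numbered samples did not deviate together (correlations across genes of -0.11, 0.06, 0.03 and 0.03 for numbers 1 to 4). Not every sample correlated best with its own number. The labels state no pairing, and these correlations cannot exclude a shared batch, so whether samples were paired is not known. With the replicate block 24 large and 17 small subunit genes were called higher and 0 lower, 40 of them shared with the fit without it, and over all genes 3873 were called against 4457. A count of a single gene near the floor, as for Rps29, Rps13 or Rpl32l, limits what depth can show.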
